A study of Mus musculus with 44 samples.

Results

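The cells described here are the GFP-negative fraction of cultured mouse calvarial osteoblasts, at day 7 and at day 17 of culture. They were taken from the sample titles: all arrays of the negative sort of experiments Exp99, Exp101 and Exp103 (day 7) and of Exp100, Exp105 and Exp106 (day 17). These are 18 of the 44 arrays of the series and 6 of its 18 RNA samples, since each of the 6 RNA samples was hybridised to 3 types of Affymetrix array, A, B and C, which carry different probe sets. The other samples are the GFP-positive fractions of the same 6 experiments and the unsorted cultures, and the GFP-positive fractions are used below for comparison and share the normalisation, the filter and the estimate of spread. The unsorted cultures entered only the normalisation.

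In the bone of the skull vault, osteoblasts arise from mesenchymal progenitors that multiply, lay down a collagen matrix and then mineralise it. Fragments of the promoter of the type I collagen gene Col1a1 that drive green fluorescent protein (GFP) label these cells as they mature: the longer Col3.6 fragment is active early in the lineage and in some related mesenchymal cells, and the shorter Col2.3 fragment in mature osteoblasts and osteocytes. The GFP-negative fraction of such a culture therefore holds whatever the promoter does not label, which can include progenitors, fibroblast-like cells, macrophages and muscle cells.

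The groups differed in more than the day. Cells of the day 7 group came from pOBCol3.6GFP cultures kept in DMEM with 10% FCS without additions. Cells of the day 17 group came from pOBCol2.3GFP cultures in the same medium, to which ascorbic acid and beta-glycerophosphate were added from day 7 to day 17. Both used calvarial cells of newborn mice of 7 days, sorted by fluorescence, so a GFP-negative cell of day 7 lacked Col3.6GFP and one of day 17 lacked Col2.3GFP. Day, transgene and additions changed together and cannot be told apart, and the GFP transcript itself was not analysed here. Only the experiment names mark the 3 samples of each day as separate, so the p-values below measure the spread between these samples. In bulk RNA, fewer cells of a type and less RNA per cell cannot be told apart.

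Values are array intensities after quantile normalisation within each array type, listed as Exp99, Exp101 and Exp103 for day 7 and as Exp100, Exp105 and Exp106 for day 17. Differences are day 17 minus day 7 on the scale of log2(intensity + 32), with their standard error and n = 3 samples per day. The adjusted p comes from limma after Benjamini-Hochberg correction over all 22099 probe sets tested, and a gene "rose" or "fell" where it was under 0.05. Each gene is represented by 1 probe set.

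The GFP-negative sample of Exp106 stood apart from the other 5. Its mean correlation with them was 0.854 on array A, against 0.953 among the other 5. Mki67, a marker of proliferating cells, read 2954 and 3108 in Exp100 and Exp105 but 175 in Exp106, and its GFP-positive fraction was as low, at 138. The genes of the cell cycle list were 0.65 below the day 7 mean in Exp106 (median of the log2 deviations) and 0.39 and 0.56 above it in the other two. Results that rest on Exp106 are therefore given with and without it. In fits without Exp106 both its GFP-negative and its GFP-positive sample were left out, so the estimate of spread changed as well. How much of a call made without Exp106 rests on either sample was not tested gene by gene.

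Between day 7 and day 17, 49 probe sets rose (0.222% of those tested) and 47 fell (0.213%), together 0.434%. In all 96 the day 17 samples lay wholly above or wholly below the day 7 samples, and all 96 differed by at least 2-fold. At an unadjusted p under 0.05 there were 2443 probe sets, 11.1% of those tested. Counted by gene, 41 of 10613 rose (0.386%) and 22 fell (0.207%). Without Exp106, 387 probe sets passed (1.75%; 188 higher and 199 lower), 93 of the 96 among them, or by gene 1.37% higher and 1.12% lower. Leaving out another GFP-negative sample left 17 (Exp99), 22 (Exp101), 20 (Exp103), 25 (Exp100) or 25 (Exp105), and leaving out the Exp106 negative sample alone left 71. A fit on the 6 GFP-negative samples only called 28. Leaving out 1 GFP-positive sample gave 258 for Exp106 and 49 to 52 for the others. Alpl, Mfap2, Gpx3, Matn4, Gdf10, Serping1, Psat1 and Snhg12 passed under each of the 23 alternatives run, as did Islr and Fxyd1. The other genes called below lost their call under at least 1 of them, most often when a GFP-negative sample was left out.

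**Figure D1:**
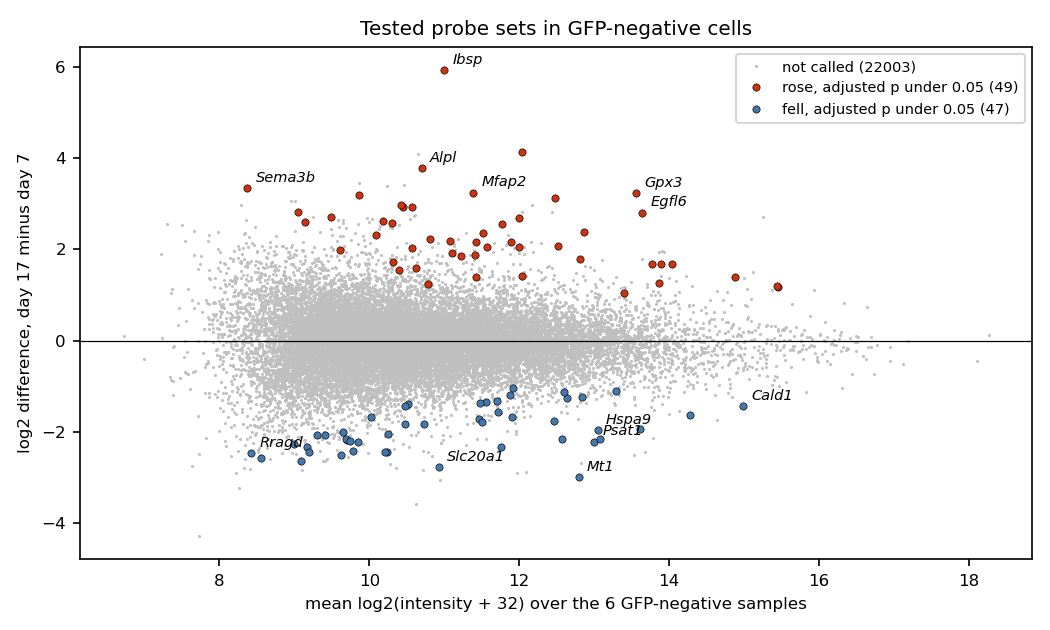
Each point is 1 of the 22099 probe sets tested in GFP-negative cells, with its mean log2 intensity on the x axis and its log2 difference, day 17 minus day 7, on the y axis. Coloured points are the 49 that rose and the 47 that fell, and they lie outside the bulk of the points in both directions.

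Both Ibsp and Alpl, genes of mineralising osteoblasts, rose in cells sorted as lacking Col2.3GFP at day 17. Ibsp, bone sialoprotein of the mineralised matrix, read 37, 474 and 483 at day 7 and 12716, 26606 and 11864 at day 17. Every day 17 sample was far above every day 7 sample, and the difference was 5.93 ± 0.90 (60.8-fold, adjusted p = 0.0176). Alpl, the alkaline phosphatase that frees phosphate for mineral, went from 291, 397 and 614 to 6648, 8677 and 4002, a rise of 3.79 ± 0.38 (13.8-fold, adjusted p = 0.00207). In the GFP-positive cells of day 17, Ibsp read 57657, 75113 and 100227, above every negative sample, and Alpl 12000, 10856 and 6589, which overlapped them. Their changes between the days, 6.92 for Ibsp and 4.21 for Alpl, were not shown to differ from those of the negative cells (adjusted p of the difference 1 for both). The call of Ibsp was lost when any 1 of the GFP-negative samples other than Exp106 was left out, and a second Ibsp probe set gave 1.75 ± 0.67 (adjusted p = 0.358).

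Later and earlier genes of the lineage stood differently. Dmp1, a matrix protein of osteocytes, read at most 174 at day 7, and 299, 835 and 172 at day 17 in negative cells (1.07, adjusted p = 0.696), against 3745, 8719 and 626 in the positive cells of day 17. Only its Exp106 value fell within the day 7 range. Ptprz1, a receptor tyrosine phosphatase, stood at 37, 30 and 32 and then at 161, 546 and 467, a difference of 2.56 that did not pass (adjusted p = 0.082), while the positive cells reached 5891, 9286 and 6578. Other Ptprz1 probe sets gave -0.46 and 2.41 in negative cells and did not pass. Slc20a1, a sodium-phosphate transporter, fell from 5614, 5317 and 4369 to 1015, 1052 and 333 (-2.78 ± 0.41, adjusted p = 0.0149). Msx2, a homeobox factor, was lower in all 3 day 17 samples without passing (-2.70, adjusted p = 0.198).

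Of the 25 genes of the osteoblast and osteocyte list on the arrays, 2 rose and 1 fell, and the list's median difference was 0.75, against -0.02 over all 15964 genes. In 9 of the 25 the day 17 samples were all above the day 7 samples, and in 4 all below, where 8.90% and 11.0% of all genes did so. Without Exp106, Pth1r, the parathyroid hormone receptor, rose by 2.20 (adjusted p = 0.00861) and Dlx3, a homeobox factor of the lineage, by 2.78 (adjusted p = 0.0348). With Exp106 these differences were 1.65 and 2.01 and did not pass (adjusted p = 0.201 and 0.288). The type I collagen genes were among the brightest on the arrays at both days. Col1a1 read 96672, 42648 and 120546 and then 132817 in each day 17 sample, the same value because it held the same rank on all 3 arrays, and its difference of 0.75 did not pass (adjusted p = 0.458). Col1a2 went from 71772, 38651 and 87317 to 109144, 109144 and 111715 (0.82, adjusted p = 0.282).

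Many of the named rises were of extracellular matrix genes. Mfap2, a glycoprotein of elastin-associated microfibrils, read 865, 791 and 855 at day 7 and 12000, 6978 and 6578 at day 17, a rise of 3.24 ± 0.30 (adjusted p = 0.00103). Egfl6, a secreted protein with EGF repeats, rose from 3681, 5017 and 6012 to 58176, 26674 and 24879 (2.81 ± 0.40, adjusted p = 0.0129). Matn4, a matrilin that links matrix filaments, rose from 1497, 1922 and 2361 to 27564, 17650 and 9938 (3.14 ± 0.36, adjusted p = 0.00352). In none of these 3 genes did the days overlap, and Exp106 was the lowest day 17 sample of each.

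Elastin and the collagen-binding proteoglycans Fmod, Dcn and Lum also rose, while Bgn, biglycan, of the same family differed by 0.00 and did not pass. Eln went from 1196, 914 and 1707 to 6294, 3911 and 3747 (1.85 ± 0.34, adjusted p = 0.0457). Fmod, fibromodulin, went from 6130, 7002 and 10833 to 28164, 29382 and 18727 (1.68 ± 0.26, adjusted p = 0.0176). Dcn, decorin, and Lum, lumican, were already bright at day 7 and rose by 1.20 ± 0.23 and 1.17 ± 0.21 (adjusted p = 0.0484 and 0.0427). Lum reached 63003, 56236 and 86114 from 26998, 32409 and 30678. Mfap2, Eln, Fmod, Dcn and Lum were the 5 of 50 members of the list of other matrix glycoproteins and proteoglycans that rose, and none fell. The list's median was 0.32 in negative cells and -0.56 in positive cells.

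No collagen gene passed. Of the 32 on the arrays, 26 were above 0, 13 had all day 17 samples above all day 7 samples and none had them all below, with a median of 0.81. Over all genes, 7785 of 15964 were above 0, 8.90% lay wholly above day 7 and 11.0% wholly below. Among the collagens Col16a1 was nearest to passing, from 3590, 2134 and 1689 to 14017, 12603 and 6563 (2.15, adjusted p = 0.0781), and it rose without Exp106 (2.48, adjusted p = 0.0465). Col3a1, the fibrillar collagen of soft connective tissue, differed by 1.37 (adjusted p = 0.255). One day 7 sample, Exp101, was the lowest of the 3 for Col1a1, Col1a2, Col3a1 and Col6a1, whose Exp101 value was 5447 against 14735 and 20199.

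Of 35 genes of the fibroblast and mesenchymal progenitor list, 5 rose and none fell: Sfrp2, Fap, Eln, Dcn and Lum. The list's median was 0.32, and its summed intensity was 224376 to 314608 at day 7 and 392738 to 473565 at day 17. In the positive cells the same sum went from 248114 to 314575 at day 7 to 211232 to 236581 at day 17. Fap, a surface protease of activated fibroblasts, rose by 2.03 ± 0.30 (adjusted p = 0.0166), and the difference in positive cells was 1.89. Cpxm2, a carboxypeptidase-like secreted protein, rose by 2.15 ± 0.30 (adjusted p = 0.0129; 2.23 and -0.03 on other probe sets, of which the first passed) and Islr, a glycosylphosphatidylinositol-anchored protein of mesenchymal cells, by 1.78 ± 0.22 (adjusted p = 0.00484). These 2 genes were named after their values were seen. Of 22 chondrocyte genes 2 rose, Matn4 and Fmod, while Col2a1 (52 to 265) and Acan (53 to 292), which define cartilage, stayed below the filter on low values at both days. The chondrocyte list's median was 0.44, with 7 genes wholly above day 7 and 1 wholly below, against 8.90% and 11.0% of all genes. Its summed intensity was 33931 to 47204 at day 7 and 73554 to 106523 at day 17. Of 10 tendon and ligament genes, Fmod alone rose.

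**Figure D2:**
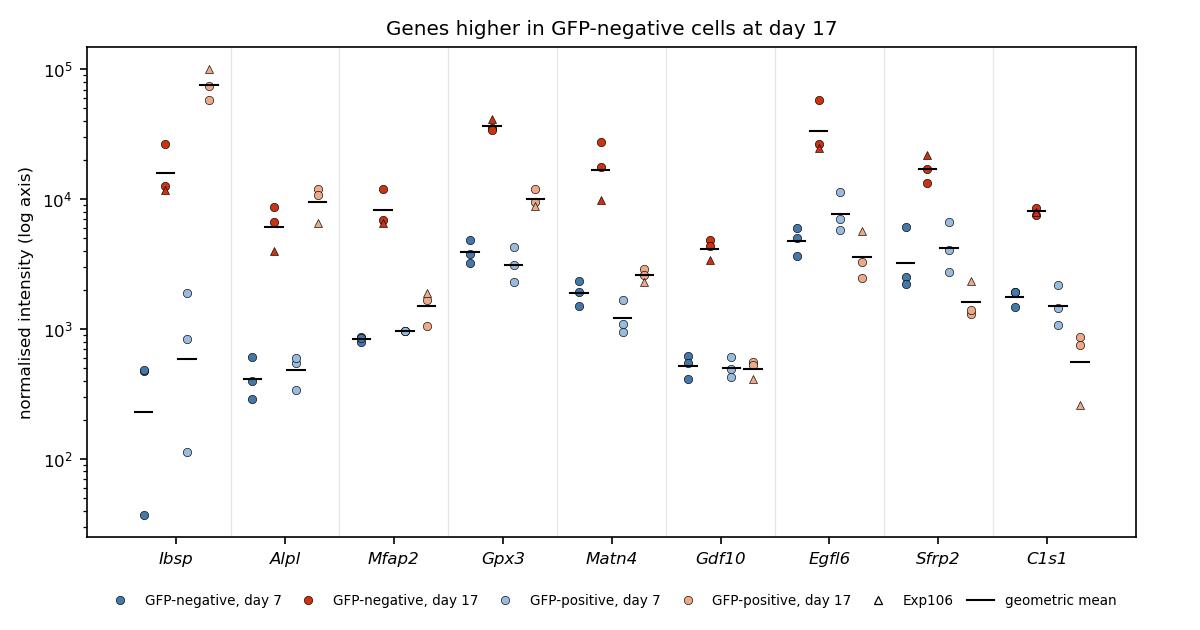
Normalised intensity on a log axis of Ibsp, Alpl, Mfap2, Gpx3, Matn4, Gdf10, Egfl6, Sfrp2 and C1s1 in each RNA sample of the 4 sorted groups, with triangles for Exp106 and a bar at the geometric mean. In each gene the 3 GFP-negative samples of day 17 lie above the 3 of day 7, and in Egfl6, Sfrp2 and C1s1 the GFP-positive samples of day 17 lie below those of day 7.

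Secreted inhibitors of Wnt signalling were among the rises. Wnt ligands act through frizzled receptors and drive osteoblast formation, and Wif1 and the Sfrp proteins bind the ligands outside the cell. Wif1 read 203, 404 and 252 at day 7 and 2284, 4496 and 2083 at day 17, a rise of 3.19 ± 0.42 (adjusted p = 0.00922), and its change in positive cells was 3.11. Sfrp2 rose from 2525, 2215 and 6093 to 17115, 13257 and 21790 (2.38 ± 0.42, adjusted p = 0.0427). In positive cells it was lower at day 17, going from 2762, 4068 and 6662 to 1297, 1409 and 2325. Dkk1, which blocks the Wnt co-receptor, read 93, 25 and 28 and then 385, 540 and 321 (2.54, adjusted p = 0.209), well under the 3836, 4651 and 928 of the positive cells. Of 39 Wnt pathway genes, Wif1 and Sfrp2 rose and none fell, with a median of 0.38.

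Among ligands and receptors of other pathways, few passed. Gdf10, a ligand of the BMP family also called BMP3b, read 416, 619 and 546 at day 7 and 4839, 4352 and 3399 at day 17 (2.92 ± 0.30, adjusted p = 0.00207). In positive cells it stayed between 414 and 614 at both days. Gdf10 was the 1 of 46 genes of the BMP, TGF-beta and activin list that rose, none fell, and the list's median was 0.02. Bambi, a decoy receptor of this family, read 4857, 8249 and 1273 after 1051, 1090 and 1223, and rose only without Exp106 (2.47, adjusted p = 0.0024; 1.70 and 0.416 with it). Of 28 growth factor receptors, Lifr alone rose (1.72 ± 0.32, adjusted p = 0.0468); it binds leukemia inhibitory factor. Its other probe sets gave 0.55 and 1.63 and did not pass.

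Sema3b, a secreted semaphorin, rose from 71, 54 and 96 to 922, 1195 and 963 (3.34 ± 0.55, adjusted p = 0.0278). Penk, the precursor of the enkephalin peptides, rose from 1187, 1910 and 1735 to 11495, 6572 and 14631 (2.69 ± 0.43, adjusted p = 0.0247). Mdk, the growth factor midkine, rose by 1.41 ± 0.27 (adjusted p = 0.0485). The days did not overlap in any of the 3. Igf1, insulin-like growth factor, gave different answers by probe set: 0.91 (adjusted p = 0.239) on its own probe set here, and 1.90, 1.67 and 1.77 on 3 others, of which the second passed (adjusted p = 0.0468). No gene of the insulin-like growth factor list was called by its own probe set, with a median of 0.21 over 16 genes.

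Rarres2, Rbp4 and Dio2 were also among the rises. Rarres2, the chemoattractant chemerin, named for its response to retinoids, rose from 504, 454 and 470 to 3868, 3173 and 4621 (2.93 ± 0.40, adjusted p = 0.01), while the positive cells of day 17 read 265, 647 and 731. Rbp4, the plasma carrier of retinol, rose from 632, 426 and 424 to 2965, 3056 and 3211 (2.59 ± 0.34, adjusted p = 0.00947). Crabp1 and Crabp2, which bind retinoic acid in the cell, were lower in every day 17 sample without passing (-2.43 and -2.49, adjusted p = 0.0516 and 0.0596), and both fell without Exp106 (adjusted p = 0.00225 and 0.0475). A second Crabp2 probe set went the other way with all samples, at 0.55 ± 0.68, and did not pass (adjusted p = 0.799). Of 18 retinoid genes 2 rose and none fell, with a median of -0.10. Dio2, the deiodinase that activates thyroid hormone, rose from 282, 159 and 98 to 1252, 1324 and 1560 (2.82 ± 0.51, adjusted p = 0.0443), a call lost without Exp106 (2.73, adjusted p = 0.053).

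Gpx3, Serping1 and C1s1, which act in blood plasma and tissue fluid, rose as well. Gpx3, the secreted glutathione peroxidase, read 4837, 3249 and 3795 at day 7 and 35116, 34310 and 41553 at day 17, a rise of 3.23 ± 0.25 (9.36-fold), the smallest adjusted p among the named genes (0.000567). The positive cells reached 9473, 11950 and 8901. A second Gpx3 probe set gave 1.03 ± 0.49 and did not pass (adjusted p = 0.464). Serping1, the inhibitor of the C1 complement protease, rose from 1659, 1303 and 1290 to 8245, 6786 and 10531 (2.55 ± 0.31, adjusted p = 0.00484). C1s1, the protease it inhibits, rose from 1931, 1920 and 1490 to 8622, 7625 and 7932 (2.17 ± 0.40, adjusted p = 0.0457). Of 17 complement genes Serping1 and C1s1 rose and none fell, with a median of 0.73. Hpgd, which inactivates prostaglandins, rose by 2.63 ± 0.32 (adjusted p = 0.00513), and the difference in positive cells was 2.64.

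Mt1, a metallothionein that binds zinc and copper, fell on 1 of its 2 tested probe sets. It read 30021, 14496 and 18432 at day 7 and 1624, 2339 and 4035 at day 17, a fall of -2.99 ± 0.42 (adjusted p = 0.0129). The second, on array B, gave 0.21 ± 0.44, so the probe sets of Mt1 disagree. Mt2 went from 52211, 24442 and 22319 to 3342, 3528 and 15167 (-2.43, adjusted p = 0.208), with Exp106 nearest to day 7, and fell without it (-3.14, adjusted p = 0.00718). Mt3 differed by 0.20 with overlapping days. Mt1 and Gpx3 were the only calls among 29 metallothionein and antioxidant genes, whose median was -0.07.

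Macrophage genes were higher at day 17, although none passed with all samples. Lyz2, a lysozyme of macrophages and granulocytes, read 11265, 4109 and 6878 at day 7 and 36095, 24935 and 14982 at day 17 (1.80, adjusted p = 0.204). Ctss, the protease cathepsin S, read 2976, 1269 and 2323 and then 20073, 14325 and 11159 (2.82, adjusted p = 0.0761). Without Exp106, Lyz2, Ctss, Csf1r and C1qc rose (adjusted p = 0.0325, 0.00522, 0.0325 and 0.0319). Of 41 macrophage and leukocyte genes, 39 were above 0, 21 had all day 17 samples above all day 7 samples and none had them all below. Among all 15964 genes, 7785 were above 0, 8.90% lay wholly above day 7 and 11.0% wholly below. The median of the macrophage and leukocyte genes was 1.26, the highest of the lists described here.

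The summed intensity of these 41 genes was 48518 to 94880 in negative cells at day 7 and 132278 to 219945 at day 17. In positive cells it was 34372 to 38532 and then 49590 to 179118, the highest being Exp106, whose positive fraction read 18284 for Lyz2 against 5557 and 4894 in Exp100 and Exp105. The higher macrophage sum therefore accompanied every difference between the days in negative cells, and its part in the other calls was not tested. Ctsk and Ctsh, lysosomal proteases, rose by 1.04 ± 0.19 and 2.04 ± 0.32 (adjusted p = 0.0457 and 0.0213), the 2 calls among 49 lysosomal genes, whose median was -0.08. A second Ctsk probe set gave 0.40 and did not pass (adjusted p = 0.713). Ctsk is also a protease of osteoclasts, and of 12 osteoclast genes it rose and Ostm1, needed for osteoclast acidification, fell (-1.34 ± 0.25, adjusted p = 0.0461). Among single markers of other lineages, Cdh5 of endothelium read 33 to 41 over both days, Krt14 of epithelium 28 to 81, and Cd3e of T lymphocytes 112 to 195. The summed intensity of 19 endothelial genes was nevertheless higher in every day 17 sample, 17454 to 29127 against 12721 to 17142, and that of 17 epithelial genes was 4684 to 10284 against 4209 to 5284, with Exp106 highest in both. The sum of 22 lymphocyte, mast cell and granulocyte genes was 20527 to 30728 against 17388 to 21472, again highest in Exp106. Their median difference was 0.23. None of the genes of these 3 lists was called, and the part of such cells in the other calls was not tested. The adipocyte marker Fabp4 read 244 to 473 at day 7 and 53 to 315 at day 17 and was not tested, being too low, and no adipocyte gene of 24 was called. Of the 24, 5 lay wholly above day 7 and 3 wholly below, where 8.90% and 11.0% of all genes did so. Their median difference was -0.04. Their summed intensity was 35509 to 53832 at day 7 and 51311 to 81479 at day 17, and Apoe and Apod rose without Exp106.

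Genes that serve amino acid supply were among the falls. When amino acids run short or proteins misfold, translation of the transcription factor Atf4 rises, and ATF4 switches on amino acid synthesis, uptake and transfer RNA charging through a composite element, written TGATGNAA, that it shares with C/EBP factors. Psat1, an enzyme of serine synthesis, read 15427, 17684 and 20073 at day 7 and 2963, 3726 and 4842 at day 17, a fall of -2.22 ± 0.26 (adjusted p = 0.00369). The positive cells of day 17 kept 11451, 8550 and 6251. A second Psat1 probe set gave -0.46 ± 0.36. Sars and Iars, which charge transfer RNA with serine and isoleucine, fell from 5522, 5525 and 4291 to 1422, 2024 and 1222 (-1.72 ± 0.24, adjusted p = 0.0129) and from 5801, 4591 and 6825 to 2568, 2504 and 2285 (-1.20 ± 0.21, adjusted p = 0.0427). Cebpg, a partner of ATF4, fell from 1789, 2949 and 2345 to 922, 808 and 789 (-1.43 ± 0.25, adjusted p = 0.0427; -0.73 and -1.17 on other probe sets, which did not pass).

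The 5 promoters printed here show where the element lies in the genes of the synthetase and amino acid response lists that hold it before their start and that fell without Exp106: Aars, Gars, Asns, Chac1 and Fgf21. They were chosen after the values were seen. Tars, Herpud1, Nupr1, Slc7a11 and Vldlr, of the same lists, also hold it before their start and are not printed: the first 3 did not pass with or without Exp106 (-0.68, -0.15 and -0.36 with it), and the last 2 were too low to be tested. Each is the 250 bases before the gene's start, from RefSeq on build GRCm38.p6, written 5′ to 3′ on the gene's strand, with a match to TGATGNAA or its other strand TTNCATCA in capitals. Aars lies at chr8:111033592-111033841 (plus strand), Gars at chr6:55037751-55038000 (plus), Asns at chr6:7693210-7693459 (minus), Chac1 at chr2:119350992-119351241 (plus) and Fgf21 at chr7:45615491-45615740 (minus).
Aars: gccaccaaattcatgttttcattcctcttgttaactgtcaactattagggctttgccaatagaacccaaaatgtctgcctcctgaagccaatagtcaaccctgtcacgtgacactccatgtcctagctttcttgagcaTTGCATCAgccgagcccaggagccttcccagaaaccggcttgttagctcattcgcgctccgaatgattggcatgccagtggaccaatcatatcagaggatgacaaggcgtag
Gars: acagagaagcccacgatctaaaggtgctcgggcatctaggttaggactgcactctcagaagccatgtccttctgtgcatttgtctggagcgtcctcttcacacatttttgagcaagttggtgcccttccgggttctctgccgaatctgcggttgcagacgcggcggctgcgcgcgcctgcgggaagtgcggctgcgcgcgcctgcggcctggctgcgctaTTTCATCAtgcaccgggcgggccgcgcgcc
Asns: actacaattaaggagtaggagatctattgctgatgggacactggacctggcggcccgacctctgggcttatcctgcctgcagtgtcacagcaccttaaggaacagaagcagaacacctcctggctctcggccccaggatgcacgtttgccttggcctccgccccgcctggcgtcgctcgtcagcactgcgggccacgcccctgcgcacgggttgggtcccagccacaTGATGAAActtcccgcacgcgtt
Chac1: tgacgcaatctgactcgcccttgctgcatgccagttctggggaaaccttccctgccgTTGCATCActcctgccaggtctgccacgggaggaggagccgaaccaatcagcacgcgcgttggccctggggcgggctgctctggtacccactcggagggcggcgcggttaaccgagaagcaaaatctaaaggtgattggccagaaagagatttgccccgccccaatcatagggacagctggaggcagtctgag
Fgf21: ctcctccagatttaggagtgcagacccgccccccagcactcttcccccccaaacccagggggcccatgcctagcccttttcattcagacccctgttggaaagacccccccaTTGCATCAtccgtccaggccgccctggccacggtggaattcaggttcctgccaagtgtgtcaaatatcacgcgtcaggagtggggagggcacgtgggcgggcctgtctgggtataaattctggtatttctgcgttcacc
The match begins 112, 30, 23, 193 and 139 bases before the start, in the order printed. On both strands and over 300 bases, 250 before and 50 after the start, 1304 of 32851 promoters of the table held the motif (3.97%), and 265 of 10864 promoters of tested genes (2.44%). Among the synthetases 12 of 19 genes were matched, and 5 of their 12 promoters held it. Among the amino acid response genes 25 of 30 were matched, and 7 of their 29 promoters held it. That list names regulators and targets of the response, so its share follows from which genes were listed. It is not a result of the values measured here. A match is a description of these letters and was not tested as a binding site.

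The 5 genes with printed promoters were chosen for falling without Exp106, so their lower values in Exp100 and Exp105 follow from that choice. In 4 of them Exp106 was the closest of the 3 to day 7. Asns, asparagine synthetase, read 23258, 21920 and 27172 at day 7 and 5399, 7037 and 15579 at day 17 (-1.51, adjusted p = 0.184; without Exp106 -1.96, adjusted p = 0.0012). Chac1, which degrades glutathione, read 22349, 31328 and 32073 and then 2535, 3355 and 14183 (-2.50, adjusted p = 0.0709; without Exp106 -3.26, adjusted p = 0.000292). Fgf21, a hormone of nutrient stress, read 1372, 2533 and 2308 and then 192, 269 and 596 (-2.55, adjusted p = 0.0596; without Exp106 -2.97, adjusted p = 0.00537). Gars, which charges glycine transfer RNA, was lowest in Exp106: it read 11864, 11720 and 15018 and then 3792, 6439 and 2389 (-1.71, adjusted p = 0.0728; without Exp106 -1.37, adjusted p = 0.0243). Aars, for alanine, read 4284, 2918 and 5792 and then 1001, 1617 and 4742 (-1.06, adjusted p = 0.538, and without Exp106 -1.69, adjusted p = 0.0447). With all samples, other probe sets of Asns gave -2.64, -2.39, -0.65 and 0.76 and did not pass. A second probe set of Gars went the other way, at 0.71 ± 0.34, and did not pass.

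Trib3 and Ddit3, which damp the response or promote cell death under prolonged stress, differed widely between the day 17 experiments. Trib3 stood at 5908, 6073 and 4410 at day 7, at 146 and 118 in Exp100 and Exp105, and at 3503 in Exp106 (-3.58, adjusted p = 0.273). Without Exp106 it fell by 5.05 (adjusted p = 0.000271). Ddit3 stood at 4871, 8137 and 4577 and then at 636, 151 and 2549 (-3.06, adjusted p = 0.196; without Exp106 -4.03, adjusted p = 0.00875). Atf4 itself read 17850, 18823 and 18940 and then 7045, 6825 and 15883 (-1.02, adjusted p = 0.255; without Exp106 -1.41, adjusted p = 0.0012). The positive cells changed by -0.37 for Atf4, -2.28 for Trib3, -3.06 for Ddit3 and -1.14 for Asns, and no difference between the fractions passed for these 4 genes.

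Of 34 amino acid response regulators and targets, Psat1 and Cebpg fell and none rose, 32 were below 0 and 22 had all day 17 samples below all day 7 samples. The median was -1.00 (-0.84 in positive cells), and 14 fell without Exp106. Their summed intensity was 204529 to 243375 at day 7 and 67180 to 169377 at day 17. Of 19 cytosolic aminoacyl-tRNA synthetases, Sars and Iars fell, 18 were below 0, 12 had all day 17 samples below all day 7 samples, and the median was -0.72; 7 fell without Exp106. Kars, for lysine, was the 1 above 0, at 0.36. For comparison with both lists, 8178 of all 15964 genes were below 0 and 11.0% lay wholly below day 7. Of the genes tested, 1.12% fell without Exp106. The amino acid response and synthetase lists were drawn up after the values were seen, so their counts describe these samples and are not independent evidence of a direction. The labels name changes of medium before day 7 and none after it, and the part of this and of the additions in the lower values was not tested.

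**Figure D3:**
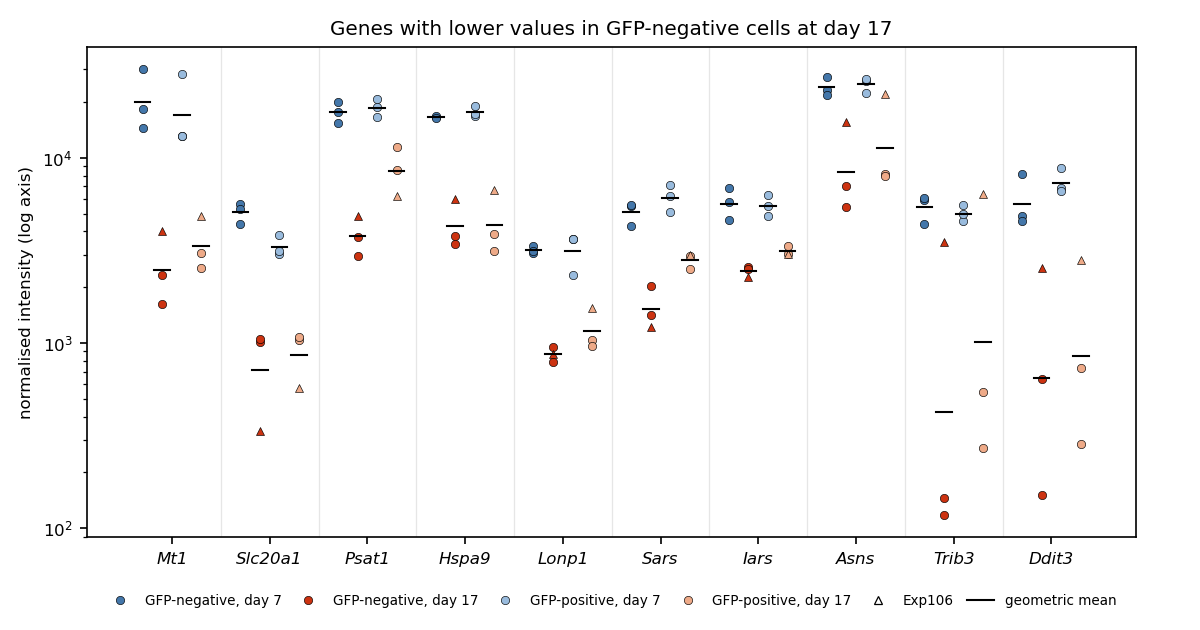
Normalised intensity on a log axis of Mt1, Slc20a1, Psat1, Hspa9, Lonp1, Sars, Iars, Asns, Trib3 and Ddit3 in each RNA sample of the 4 sorted groups, with triangles for Exp106 and a bar at the geometric mean. The GFP-negative samples of day 17 lie below those of day 7 in each gene, and in Asns, Trib3 and Ddit3, which did not pass, the Exp106 triangle lies closest to the day 7 samples.

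Hspa9, Lonp1 and Mtch2, whose proteins work in mitochondria, fell. Hspa9, the chaperone mortalin, read 16559, 16868 and 16413 at day 7 and 3413, 3795 and 5955 at day 17 (-1.96 ± 0.28, adjusted p = 0.0142), but 2 other probe sets of Hspa9 gave 0.00 and -0.17. Lonp1, a protease of the mitochondrial matrix, fell from 3325, 3079 and 3122 to 791, 955 and 876 (-1.83 ± 0.27, adjusted p = 0.015). Mtch2, of the mitochondrial outer membrane, fell by 1.26 on the log2 scale (SE 0.23, adjusted p = 0.0454). Of 53 genes of the respiratory chain none was called, with a median of -0.26, and of -0.02 without Exp106. Snhg12, a host transcript of small nucleolar RNAs, fell from 17561, 17808 and 19528 to 3209, 3973 and 5244 (-2.16 ± 0.26, adjusted p = 0.00484), and the difference in positive cells was -2.73.

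The remaining named falls were single genes of other functions. Rragd, a GTPase that signals amino acid status to mTORC1, fell by 2.47 (adjusted p = 0.0488), and a second probe set also passed. Anxa3, an annexin, fell from 8183, 7587 and 7291 to 2134, 2065 and 773 (-2.32 ± 0.40, adjusted p = 0.0407). Hectd2 read 1324, 1322 and 1446 and then 269, 271 and 365 (-2.08 ± 0.38, adjusted p = 0.0457), with no overlap of the days, while the positive cells of day 17 read 1212, 1277 and 3085. Lzic fell by 2.01 (adjusted p = 0.0251), Ifrd1 by 1.82 (adjusted p = 0.0289), and Adamtsl5 by 1.79 (adjusted p = 0.0407; -0.54 on a second probe set, which did not pass). Ubap1l fell as well (-2.43, adjusted p = 0.0484), a call lost without Exp106 (-2.33, adjusted p = 0.059).

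Of the skeletal muscle genes, Myl1 alone fell by the probe set that stood for it. Myl1, a myosin light chain of fast skeletal muscle, read 1480, 2675 and 2012 at day 7 and 265, 243 and 638 at day 17, a fall of -2.42 ± 0.46 (adjusted p = 0.0484). In positive cells it read 297 to 596 at day 7 and 268 to 444 at day 17. Acta1 and Tnnc1, sarcomere genes, were lower in all 3 day 17 samples (-2.84 and -3.24) without passing (adjusted p = 0.158 and 0.12). Mylpf fell on its array C probe set (-2.45 ± 0.45, adjusted p = 0.0457) and not on that of array A (-0.71, adjusted p = 0.71). Of all 15964 genes, 11.0% had all day 17 samples below all day 7 samples, 8.90% had them all above, and 7785 were above 0. Of 26 skeletal muscle genes, 9 had all day 17 samples below all day 7 samples and none all above, and 9 were above 0, with a median of -0.42 (-0.51 without Exp106). Their summed intensity was 25917 to 32060 at day 7 and 20008, 17638 and 35451 at day 17, so that Exp106 lay above every day 7 sample. Of 22 smooth muscle and pericyte genes Cald1, caldesmon, fell (-1.43 ± 0.26, adjusted p = 0.0443) and none rose, while Acta2, smooth muscle actin, read 22131, 30021 and 34310 and then 25311, 28843 and 21332 (-0.18, adjusted p = 0.784).

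Growth and metabolism lists held no call by a gene's own probe set. Of 63 cell cycle and DNA replication genes none passed, and the median was -0.00 with Exp106 and 0.43 without it. Mki67 read 1424, 956 and 1496 and then 2954, 3108 and 175 (-0.06, adjusted p = 0.99), and its difference was 1.24 without Exp106 (adjusted p = 0.079). A second Mki67 probe set gave 0.92 ± 0.55 with Exp106 included and did not pass. Of 28 growth arrest and p53 target genes, 13 had all day 17 samples below all day 7 samples and 4 all above, with a median of -0.36. The shares of all genes that did so were 11.0% and 8.90%. Gas6, a ligand of the Axl receptor in the growth arrest list, was higher, from 4739, 4342 and 5203 to 19450, 13117 and 16789 (1.77, adjusted p = 0.0596; without Exp106 1.74, adjusted p = 0.0228). Of 20 cholesterol synthesis genes 17 were below 0 and 13 had all day 17 samples below all day 7 samples, with a median of -0.77 (-0.61 without Exp106). Among all 15964 genes, 8178 were below 0 and 11.0% lay wholly below day 7. In positive cells the median of the cholesterol list was -0.81, but it rested on Exp106: the samples' median deviations were 0.01, -0.04 and -2.10. Msmo1, a sterol demethylating oxidase, read 5769, 4562 and 4831 and then 2360, 2094 and 709 (-1.70, adjusted p = 0.326), and it fell without Exp106 (-1.17, adjusted p = 0.0366). With all samples, other Msmo1 probe sets gave 0.33, 0.16 and -0.81 and did not pass. The medians of ribosomal protein (-0.12), glycolysis (-0.04), secretory pathway (0.06) and metalloproteinase genes (-0.08) were near the -0.02 of all genes, and without Exp106 they were -0.06, 0.04, 0.13 and -0.06. Those of interferon response (-0.02) and immediate early genes (0.09) became -0.28 and -0.15 without Exp106.

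**Figure D4:**
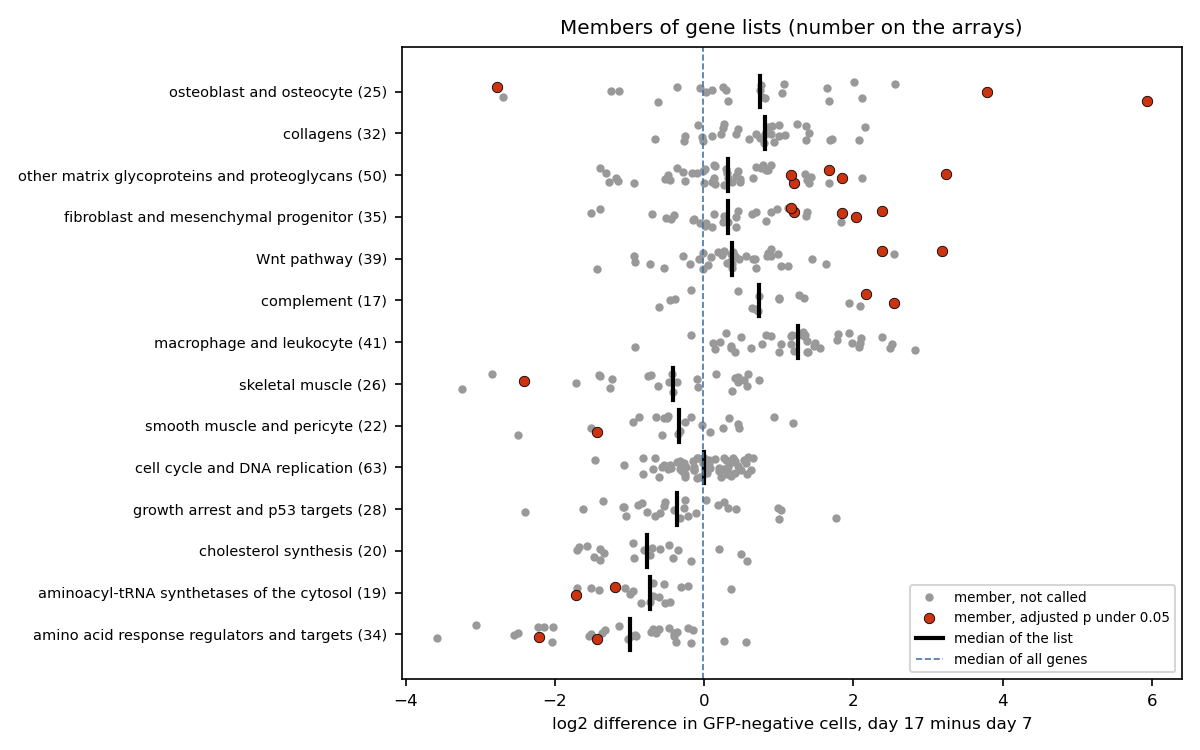
Log2 difference, day 17 minus day 7, of each member of 14 gene lists in GFP-negative cells, with red points for members that passed, a black bar at the list's median and a dashed line at the median of all genes. The macrophage list has a median of 1.26 with no member that passed, and the amino acid response list a median of -1.00 with 2.

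Some changes in the negative cells differed from those in the positive cells of the same experiments. The change between days was higher in negative cells for 42 probe sets (0.190% of those tested) and lower for 7 (0.0317%), together 0.222%, and 1322 (5.98%) differed at an unadjusted p under 0.05. With the experiment as a block, which pairs both fractions of 1 experiment, 107 passed (0.484%; 89 higher and 18 lower), 44 of the 49 among them. In 36 of the 49 the positive cells changed by the same test and in 32 of these they fell, while in 11 the negative cells did, 8 rising and 3 falling. The negative change was within 0.5 of 0 in 19. The count was 209 without Exp106 (0.946%), and in limma fits that left out single samples it was 0 without the day 7 negative sample of Exp101 or Exp103, where 1154 and 1120 probe sets had an unadjusted p under 0.05, and at most 3 without the negative sample of Exp99, Exp100 or Exp105.

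The genes with the largest positive differences were secreted proteins, with the exception of the nuclear importin Ipo13. Egfl6 rose in negative cells as given above and read 5792, 7010 and 11441 and then 3274, 2488 and 5670 in positive cells, a difference of 3.91 ± 0.56 (adjusted p = 0.0326). For Sfrp2 it was 3.74 ± 0.60 (adjusted p = 0.0385) and for C1s1 3.54 ± 0.57 (adjusted p = 0.0385). Ccn3, a matricellular protein that restrains osteoblast formation, read 5224, 4500 and 6589 and then 16622, 10495 and 14944 in negative cells, against 6549, 6958 and 7045 and then 1149, 811 and 2858 in positive cells (3.63 ± 0.54, adjusted p = 0.0326). The negative change alone, 1.35, did not pass (adjusted p = 0.191). Ipo13 differed by 3.52 (adjusted p = 0.0411) and C1qtnf3, a secreted adipokine-like protein, by 3.49 (adjusted p = 0.039), neither with a called change in negative cells.

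Among the genes that rose in negative cells, Mfap2 (2.61 ± 0.42, adjusted p = 0.0385), Gdf10 (2.94 ± 0.43, adjusted p = 0.0326), Rarres2 (3.20 ± 0.56, adjusted p = 0.0455), Islr (1.84, adjusted p = 0.0394) and Itgbl1 (2.56, adjusted p = 0.0455) also differed from the positive cells. With the experiment as a block Rarres2 no longer passed (adjusted p = 0.0568), and Fmod, at 1.77, did (0.0349 against 0.0981 without the block). For Gpx3, Matn4 and Serping1 the difference between fractions did not pass (1.56, 2.06 and 1.90, adjusted p = 0.166, 0.209 and 0.163). Genes such as Alpl (-0.43), Wif1 (0.09), Hpgd (-0.00), Rbp4 (0.12), Fap (0.14) and Fxyd1 (0.19) gave small differences between the fractions that did not pass, which does not show that the changes were equal.

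Several genes had no called change in negative cells and were lower at day 17 in positive cells. Igf2, insulin-like growth factor of fetal tissue, read 56236, 46810 and 60540 and then 52211, 41848 and 56236 in negative cells, and 53809, 47717 and 55506 and then 9008, 8049 and 15018 in positive cells (difference 2.22, adjusted p = 0.0326). Prss23, a serine protease, had the smallest adjusted p of the named differences, 0.0102, at 3.02. Tagln, of the contractile cytoskeleton, differed by 2.46 (adjusted p = 0.0424), and Acta2 by 1.65 (adjusted p = 0.0589; 0.0335 with the block). Matrix genes shared this pattern: Fbln5, an elastic fibre protein (2.20, adjusted p = 0.0161), Thbs2, thrombospondin (2.90, adjusted p = 0.0394), Ogn, osteoglycin (2.69, adjusted p = 0.0394), and the collagens Col8a1 and Col8a2 (3.41 and 2.55, adjusted p = 0.039 and 0.0326). Igfbp2, which binds insulin-like growth factors, and Meg3, an imprinted long non-coding RNA, differed by 2.66 and 3.31 (adjusted p = 0.0326 for both). Other probe sets of Igfbp2 (-0.78), Thbs2 (-0.33), Meg3 (2.02 and -0.19) and Ogn (2.55) did not pass. These 10 genes (Igf2 to Meg3, leaving out Acta2), with Islr and Itgbl1, were named after their values were seen.

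In the other direction, Cpe, a carboxypeptidase that processes peptide hormones, was the 1 gene whose own probe set passed (0.00942% of genes, against 0.292% that passed with a higher change in negative cells). It read 5046, 4152 and 4443 and then 2270, 5327 and 2044 in negative cells, and 3665, 1113 and 1741 and then 11720, 19725 and 16216 in positive cells (-3.62 ± 0.62, adjusted p = 0.0424). Other Cpe probe sets gave -3.32, -0.84 and 0.16 and did not pass. The negative samples of the days overlapped, and every positive sample of day 17 was above every other sample. The next genes by unadjusted p did not pass: Ackr3 (-3.67, adjusted p = 0.056), Ptprz1 (-4.27, 0.0619), Pmaip1 (-2.47, 0.0624), Ptgis (-2.01, 0.0787) and Fyn (-1.78, 0.0981). With the experiment as a block, Ackr3 (adjusted p = 0.0333), Ptgis (0.0243) and Fyn (0.0333) passed. On their own probe sets all 5 were higher at day 17 in positive cells, by 1.40 to 6.83. A second Fyn probe set went the other way, with a difference of 1.83, and changed by -0.27 in positive cells. Other Ptprz1 probe sets gave differences of -2.40 and -1.12. None of these other probe sets passed without the block. Phex, of the osteoblast and osteocyte list, was too low to be tested on its own probe set. On other probe sets its difference was -5.47 (limma adjusted p = 0.039) and -3.46 (0.0589). Those changed by 1.16 and 2.05 in negative cells and by 6.63 and 5.51 in positive cells.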

How the data were processed

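Total RNA of sorted calvarial cells had been hybridised to Affymetrix array types A, B and C. The deposited values are intensities per probe set on a linear scale, 1 column per array, made by the authors; no source used here names the summarising, scaling or software. The trimmed mean of the arrays used was 1247 to 1534 on type A, 1489 to 1607 on B and 1259 to 1482 on C, and the lowest deposited value was 10. The number of arrays limits the precision. Of 36701 probe sets, 29131 were paired with 1 gene by the platform annotation, 724 with several and 6846 with none, which gave 15964 genes. Unnamed probe sets were tested and counted only.

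Values were taken as log2(intensity + 32) and quantile-normalised within each array type over all its arrays, 18 on A and 13 each on B and C. These included the unsorted cultures, and the 12 sorted RNA samples were kept afterwards. Probe sets above their array's median on at least 3 of 12 samples were kept (22099), and the 3 types entered 1 limma fit (limma 3.58.1, R 4.3.3, statmod 1.5.0; tables with Python 3.11.15 and pandas 2.3.3) with 1 mean per group of day and fraction, 8 residual degrees of freedom, a variance trend, and Benjamini-Hochberg adjustment called under 0.05. The GFP-positive samples thus entered the normalisation, the filter and the estimate of spread of the day contrast. A gene was represented by 1 probe set, array A before B before C, then the brightest. Named genes were the 15 largest rises and 15 largest falls that passed without overlap, up to 3 passing members of each list, 6 differences between the fractions in each direction (filled by the smallest p), and Col1a1, Col1a2, Alpl, Ibsp, Dmp1, Lyz2, Sfrp2, Fabp4, Acta2 and Mki67. Other genes were named after their values were seen. The cells described, the 38 gene lists and 2 added lists (aminoacyl-tRNA synthetases and amino acid response) were chosen with earlier results of these data known.

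Fractions of 1 experiment share its name, and their deviations from the group means correlated at 0.0187 to 0.671, lowest on array C; the experiment was therefore also fitted as a block for the difference between fractions. The fit was tested on simulated data for the day contrast: of 50 probe sets changed by 1, 2, 3 or 4 on the log2 scale, it recovered 8, 22, 37 and 47, with 5 false calls among 22099. With 3 samples against 3, an exact permutation test of 1 gene cannot go below p = 0.1, so none was used. Alternatives were other pseudocounts, filters, normalisations, blocks and samples left out.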

Additional observations from a re-analysis of the deposited data

Results flagged for a closer look

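For 22 named genes, each by its own probe set, the change between the days differed between GFP-negative and GFP-positive cells by the test of the difference itself (adjusted p under 0.05). The differences, negative minus positive on the log2 scale, were as follows. Among genes that rose in negative cells they were 2.61 for Mfap2, 3.20 for Rarres2, 2.94 for Gdf10, 3.91 for Egfl6, 3.74 for Sfrp2, 3.54 for C1s1, 1.84 for Islr and 2.56 for Itgbl1. Among genes with no called change in negative cells they were 3.63 for Ccn3, 3.52 for Ipo13, 3.49 for C1qtnf3, 2.46 for Tagln, 2.22 for Igf2, 2.66 for Igfbp2, 3.31 for Meg3 and 3.02 for Prss23. The matrix genes among these gave 2.20 for Fbln5, 2.69 for Ogn, 2.90 for Thbs2, 3.41 for Col8a1 and 2.55 for Col8a2. Only Cpe differed in the other direction among the 22, at -3.62. With the experiment as a block, 21 of the 22 also passed, Rarres2 being the exception (adjusted p = 0.0568).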

How the results depend on the processing

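With 3 samples a day, the calls rest on few arrays. The count of 96 for the day contrast became 57 with no filter, 28 with the compared groups only, 56 on the values as deposited, 387 without Exp106, and 414 without Exp106 with experiment as a random block; samples left out singly gave 17 to 258. The count of 49 for the difference between fractions became 19 with no filter, 32 with no variance trend, 32 as deposited, 209 without Exp106, 222 with a random block and 487 with that block and no Exp106; samples left out singly gave 0 to 122. With the replicate block it was 107, and 224 with the block and without Exp106. For the day contrast a fixed block cannot be fitted, since its groups share no experiment name; with experiment as a random block it called 115, of which 90 were among the 96. The direction of Mki67 on its own probe set was reversed without Exp106, at 1.24, also with the random block, and ranged from -0.73 to 1.24 with samples left out singly. Its second probe set was already above 0 with all samples, at 0.92. Among 40 named genes past the threshold, 8 stayed there throughout; of 914 pairs of gene and alternative 299 lost the call and 0 reversed. Of 7 named differences between fractions, 0 passed under every alternative (89 of 167 lost). The fits without Exp106 and a block, and those leaving out GFP-positive samples, were added after seeing the data. The cause of these shifts was not tested.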

Other observations

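Some genes outside the lists also rose in negative cells, named after their values were seen. Fxyd1, a regulator of the sodium pump, read 974, 1385 and 1473 at day 7 and 6992, 6022 and 6738 at day 17 (2.36, limma adjusted p = 0.0034), and changed by 2.17 in positive cells. Vkorc1, which recycles the vitamin K used to carboxylate bone matrix proteins, rose by 1.27 (adjusted p = 0.0167) and changed by the same 1.27 in positive cells. Olfml3, a secreted olfactomedin-like protein, went from 19658, 20086 and 15790 to 51648, 51648 and 43661 (1.41, adjusted p = 0.0427). Cd200, a surface glycoprotein, rose by 1.98 (adjusted p = 0.0222).

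Further genes were higher at day 17 without passing in negative cells. Apoe, a lipoprotein made by macrophages and other cells, spread widely at day 17, with 34854, 15053 and 4054 after 1121, 1730 and 2193 (2.96, adjusted p = 0.182; without Exp106 3.79, adjusted p = 0.0374). Apod, a lipocalin, read 1013, 1444 and 965 and then 4293, 3836 and 3097 (1.70, adjusted p = 0.0826). Fst, the activin-binding follistatin, read 1248, 1349 and 1791 and then 5769, 4997 and 2440 (1.49, adjusted p = 0.167), and it rose without Exp106 (1.87, adjusted p = 0.0399).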
